A study of Homo sapiens with 12 samples.

Results

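The desmosomal cadherin genes lie side by side on human chromosome 18, and the peaks over this cluster were examined in RWPE-1 cells. Members were all peaks in the lists of 5 histone H3 marks that shared at least 1 base with the 580 kb from 28560000 to 29140000 (hg19). This gave 64 peaks out of 458841 in the 5 lists, of which 7 were H3K4me3, 25 H3K27ac, 27 H3K4me1, 5 H3K36me3 and 0 H3K27me3. RWPE-1 is a line of normal prostate epithelial cells immortalised with human papillomavirus 18, used here below passage 20 and grown with EGF and bovine pituitary extract in serum-free keratinocyte medium. Chromatin was immunoprecipitated for each mark in 2 replicates, and 1 list per mark was deposited for both replicates together. There was 1 culture condition, so comparisons are between genes and marks, with no error between replicates and no read depth behind any value. Nothing in the labels says whether replicates came from separate cultures, and no expression was measured.

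Desmosomes are junctions that anchor the keratin filaments of neighbouring epithelial cells, and their adhesive proteins are the desmocollins (DSC) and desmogleins (DSG), calcium-dependent members of the cadherin family. Their tails bind plakoglobin and plakophilins, which connect to desmoplakin and the keratins. In stratified epithelia the isoforms are layered. DSC3 and DSG3 are strongest in the basal and lower layers, DSC1 and DSG1 in the differentiated suprabasal layers, DSC2 and DSG2 are found in most epithelia and in heart muscle, and DSG4 is known from the hair follicle. H3K4me3 marks active or poised promoters, H3K27ac active promoters and enhancers, H3K4me1 enhancers, H3K36me3 transcribed gene bodies, and H3K27me3 is the mark of Polycomb repression.

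The 3 desmocollin genes run on the minus strand, in the order DSC3 (28570052 to 28622781), DSC2 (28645944 to 28682388) and DSC1 (28709214 to 28742819). The 4 desmoglein genes follow on the plus strand, as DSG1 (28898052 to 28937394), DSG4 (28956740 to 28994869), DSG3 (29027732 to 29058665) and DSG2 (29078027 to 29128814). All starts therefore face the 155 kb gap between DSC1 and DSG1, the suprabasal genes, and the general and basal genes lie towards the outside.

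Promoter sequences show how the starts of these genes differ in CpG content. RefSeq (GRCh38.p14) promoters of 300 bases were found for 6 of the 7 genes, all except DSG4. The 250 bases before the start are printed 5′ to 3′ for 2 genes whose starts carried H3K4me3 and 1 whose start did not, with CpG dinucleotides, where the cytosine can be methylated, in capitals.
DSC3 (chr18:31042743-31042992, minus strand): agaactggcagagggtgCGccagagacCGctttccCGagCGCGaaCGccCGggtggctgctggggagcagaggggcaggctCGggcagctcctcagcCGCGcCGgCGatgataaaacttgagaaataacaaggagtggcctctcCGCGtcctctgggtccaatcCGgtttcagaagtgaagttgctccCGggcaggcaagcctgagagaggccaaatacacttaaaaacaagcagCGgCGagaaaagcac
DSG2 (chr18:31497927-31498176, plus strand): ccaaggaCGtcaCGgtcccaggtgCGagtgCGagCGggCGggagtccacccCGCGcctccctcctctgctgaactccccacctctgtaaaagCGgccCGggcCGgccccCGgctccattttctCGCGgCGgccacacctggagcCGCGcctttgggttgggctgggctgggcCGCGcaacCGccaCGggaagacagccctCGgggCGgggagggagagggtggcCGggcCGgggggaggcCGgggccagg
DSC1 (chr18:31162857-31163106, minus strand): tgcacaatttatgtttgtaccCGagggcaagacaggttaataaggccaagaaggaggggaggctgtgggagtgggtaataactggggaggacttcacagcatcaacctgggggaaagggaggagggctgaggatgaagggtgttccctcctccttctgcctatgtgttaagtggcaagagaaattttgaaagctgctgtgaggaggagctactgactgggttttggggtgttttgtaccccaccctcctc
The stretch of DSC3 held 18 CpG dinucleotides and that of DSG2 26, against 1 in DSC1. The contrast was smaller for the other genes. The same 250 bases held 12 in DSC2 and 4 in DSG3, whose starts carried H3K4me3, and 3 in DSG1, whose start did not. Over the full 300 bases, the CpG count divided by the count predicted from the C and G content was 0.831 in DSC3, 0.826 in DSG2, 0.550 in DSC2, 0.414 in DSG3, 0.192 in DSG1 and 0.118 in DSC1. The median over all 35116 RefSeq promoters was 0.579, with quartiles of 0.229 and 0.856. The suprabasal genes DSC1 and DSG1 were the lowest of the 6, and both lay below the lower quartile.

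H3K4me3 and H3K27ac marked the starts of the basal and general genes and not those of the suprabasal genes or DSG4. Within 1 kb of the start, both marks were present at DSC3, DSG3, DSC2 and DSG2, 4 of 7 genes, and each of the 4 had exactly 1 peak of each mark there. DSC1, DSG1 and DSG4 had neither. The split followed the classes: 2 of 2 basal, 2 of 2 general and 0 of 2 suprabasal starts were marked. With 2 genes per class no test was made. The share of all gene starts with these marks is not known here, since no other starts were placed on hg19. Whether 4 of 7 is many or few was therefore not tested.

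**Figure D1:**
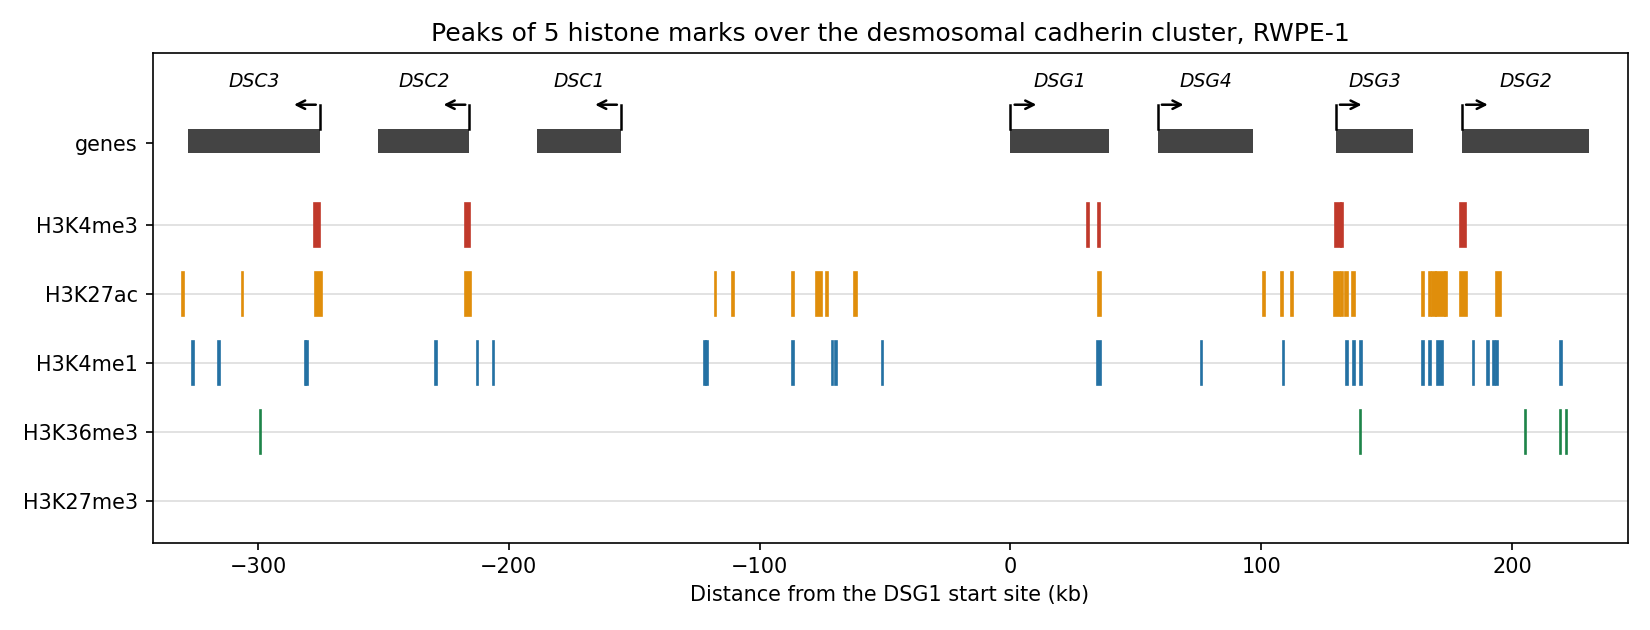
Peaks of the 5 marks (rows, outlined boxes of the peak's width) against distance from the DSG1 start site in kb, with the 7 gene bodies above and arrows at the starts showing the direction of transcription. H3K4me3 stands at the starts of DSC3, DSC2, DSG3 and DSG2, the surroundings of DSC1 are empty, and the H3K27me3 row holds 0 peaks.

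DSC3, the basal desmocollin, had the peak with the highest H3K4me3 score of the cluster. The score is the authors' own value for each peak, taken here as log10(p) multiplied by -10, and ranks peaks only within 1 list. The DSC3 peak ran from 28620225 to 28622962 (2738 bases) with a score of 3202, which is at the ceiling of 3100 and above that 13.9% of H3K4me3 peaks reached. Its H3K27ac peak, from 28620627 to 28623513, scored 2336, higher than 90.6% of that list.

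DSC2, the general desmocollin, came next in both marks. Its H3K4me3 peak from 28680563 to 28682682 was 2120 bases wide and scored 2277, above 79.1% of the list. The H3K27ac peak from 28680585 to 28682979 scored 1929, above 87.9% of its list.

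The desmoglein starts were marked with lower scores. At DSG2, the general desmoglein, H3K4me3 spanned 29077439 to 29079608 and scored 986, above 62.6% of the list, and H3K27ac spanned 29077323 to 29079870 and scored 1441 (above 83.6%). At DSG3, the basal desmoglein and main antigen of pemphigus vulgaris, H3K4me3 spanned 29027541 to 29029861 and scored 942 (above 61.8%). Its H3K27ac peak from 29027092 to 29029398 scored 725, above 73.0% of the list. In H3K4me3 the DSG3 and DSG2 scores were close together and both desmocollin scores lay above them, so score did not separate the basal from the general genes.

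**Figure D2:**
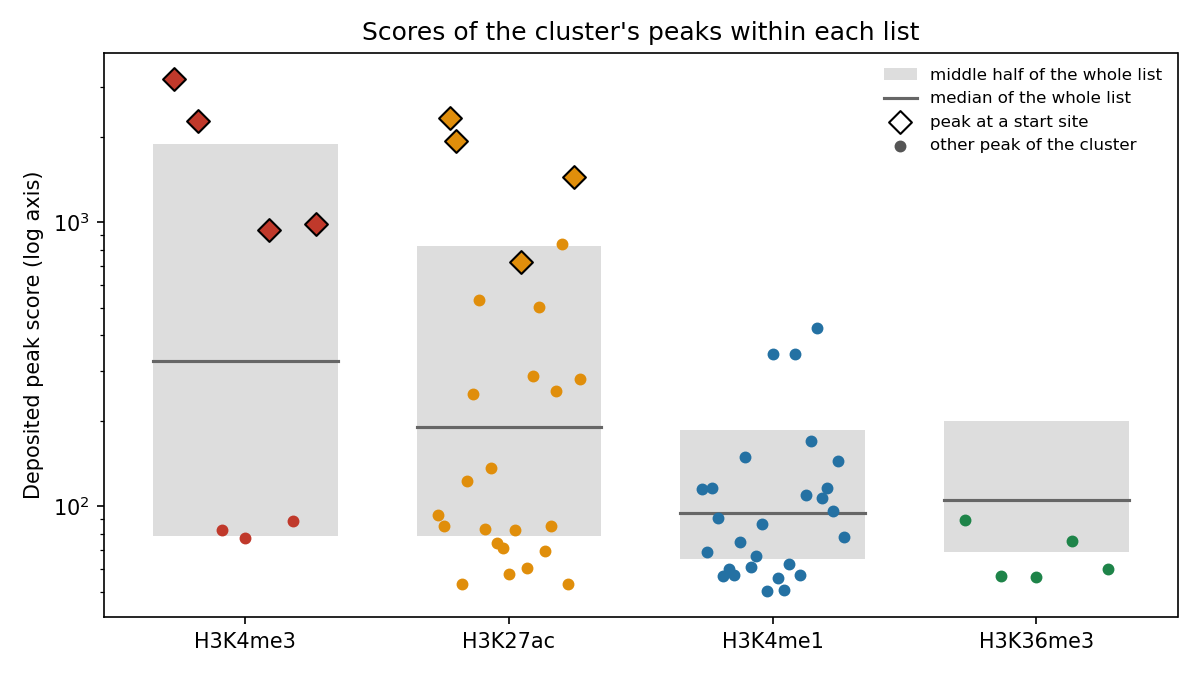
Deposited peak score (log axis) of each peak of the cluster in 4 lists, with grey boxes for the middle 50% and a line for the median of the whole list. The 4 H3K4me3 peaks at starts (diamonds) score 942 to 3202 and the other 3 score 77.3 to 88.7, while all 5 H3K36me3 peaks lie below their list's median of 104.9.

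The 4 marked starts had peaks of similar shape, mostly inside the gene. H3K4me3 reached 181 bases upstream of the start at DSC3, 191 at DSG3, 294 at DSC2 and 588 at DSG2, and 2556, 2129, 1825 and 1581 bases into the gene in the same order. H3K27ac reached farther upstream in 4 of 4, to 732 bases at DSC3, 640 at DSG3, 591 at DSC2 and 704 at DSG2. Inside the gene, H3K4me3 extended farther than H3K27ac at DSC3 (2556 against 2154 bases) and DSG3 (2129 against 1666 bases). Both marks ended almost together at DSC2 (1825 against 1803 bases), and H3K4me3 reached less far at DSG2 (1581 against 1843 bases).

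H3K4me1 touched none of these 4 H3K4me3 peaks. In the whole list, 69.6% of the 17670 H3K4me3 peaks with H3K27ac also touched H3K4me1. The nearest H3K4me1 peak lay 2.18 kb from the H3K4me3 peak of DSC3, 2.08 kb from that of DSG3, 2.61 kb from that of DSC2 and 2.71 kb from that of DSG2. It was inside the gene for DSC3, DSG3 and DSG2 and upstream for DSC2. These 4 H3K4me1 peaks had scores of 60.2 to 107, where the floor of that list was 50.0.

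**Figure D3:**
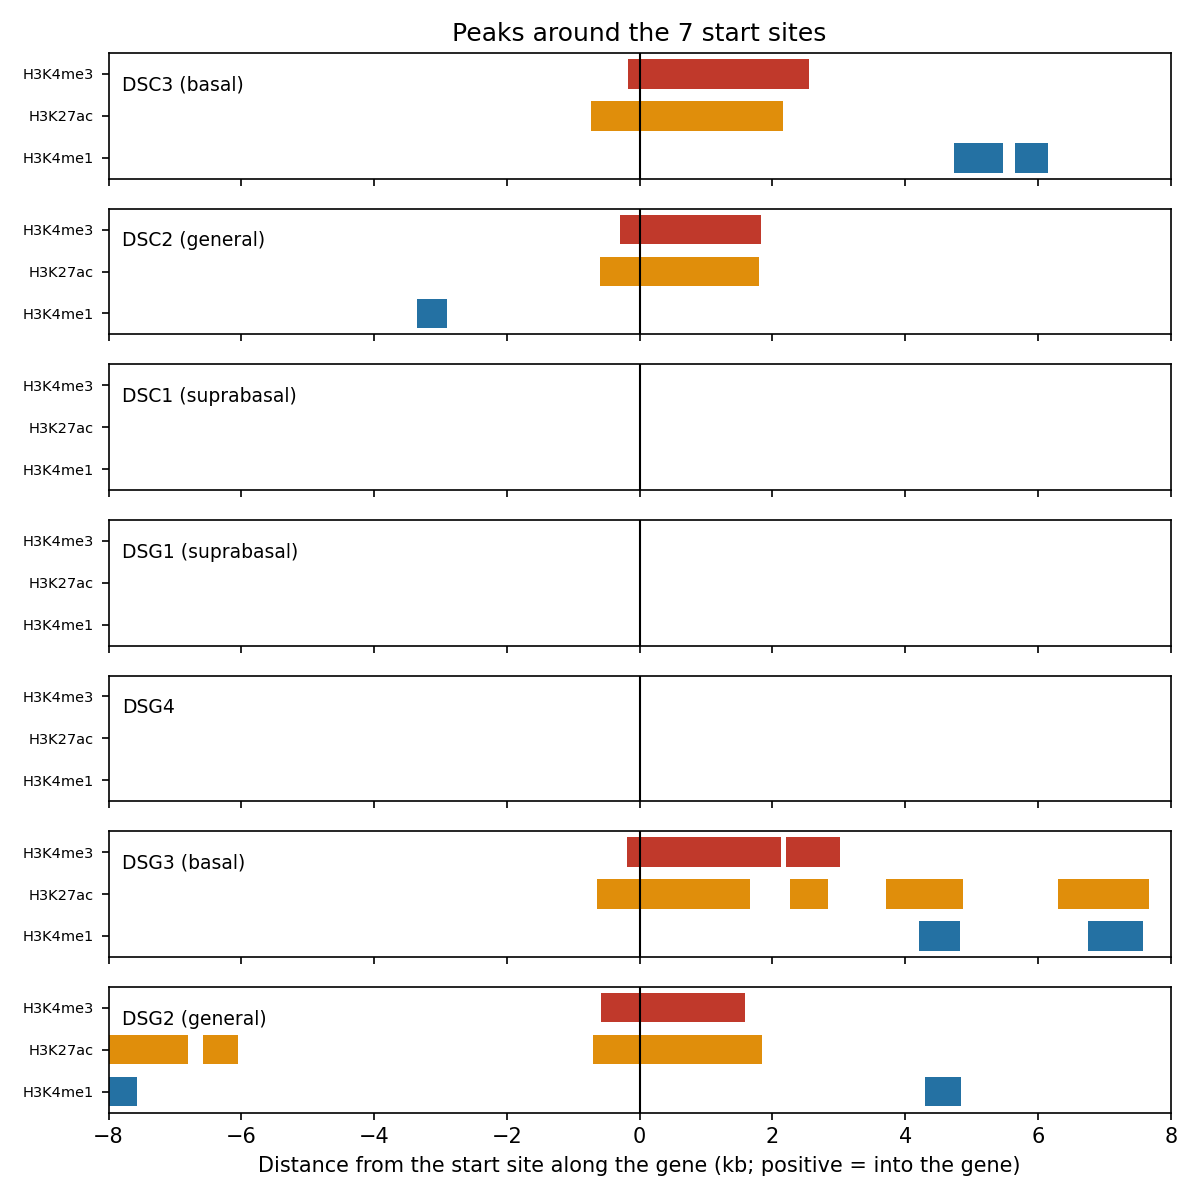
Peaks of H3K4me3, H3K27ac and H3K4me1 within 8 kb of the 7 start sites, with distance in kb measured along the gene so that positive values lie inside it. The 4 marked starts share a pair of H3K4me3 and H3K27ac peaks that lie mostly inside the gene with no H3K4me1 over them, and the windows of DSC1, DSG1 and DSG4 are empty.

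DSC1 was the emptiest gene of the cluster. No peak of any mark touched its 33.6 kb body, and it lay within the longest stretch of the region without any peak, 83.9 kb from 28692046 to 28775940. The nearest peaks to its start were H3K4me1 at 33.1 kb and H3K27ac at 37.4 kb. DSG4 had 1 peak in its body, H3K4me1 from 28974185 to 28974614 with a score of 55.8.

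DSG1, the suprabasal desmoglein and the target of pemphigus foliaceus, had no peak within 30 kb of its start but carried marks near its 3′ end. A weak H3K4me3 peak from 28933116 to 28933936 (score 77.3) coincided with H3K27ac from 28933040 to 28933987 (score 74.6) and with H3K4me1 from 28932729 to 28934118. That H3K4me1 peak scored 343, above 87.7% of its list, and covered the other 2 peaks completely. A further H3K4me3 peak of score 82.5, from 28928549 to 28929368, touched no other mark. The site was the only place in the region where H3K4me3, H3K27ac and H3K4me1 overlapped. RefSeq lists an antisense gene, DSG1-AS1, beside DSG1, and it was not placed on hg19 here.

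DSG1 and DSG3 differed in their marks although their promoters were alike in sequence. Of the 15 pairs among the 6 promoters, compared over the 250 bases before the start, DSG1 with DSG3 had the highest local alignment score, 54.0, and the next pair, DSC2 with DSG2, had 20.0. In the aligned part 104 of 119 paired bases were identical, and the longest run without a mismatch was 20 bases against at most 9 in any other pair. The aligned stretches (GRCh38.p14) are printed 5′ to 3′ with the identical bases in capitals.
DSG1 (chr18:31317982-31318113, plus strand): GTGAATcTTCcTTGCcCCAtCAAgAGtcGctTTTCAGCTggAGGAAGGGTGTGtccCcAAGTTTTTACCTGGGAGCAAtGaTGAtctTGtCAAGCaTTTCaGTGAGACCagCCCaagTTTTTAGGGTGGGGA
DSG3 (chr18:31447602-31447732, plus strand): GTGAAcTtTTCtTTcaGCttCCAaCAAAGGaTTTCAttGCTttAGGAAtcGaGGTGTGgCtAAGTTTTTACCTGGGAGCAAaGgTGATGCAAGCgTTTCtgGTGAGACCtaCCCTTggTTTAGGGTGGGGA
They began 178 bases before the start in DSG1 and 139 before it in DSG3. The H3K4me3 and H3K27ac peaks of DSG3 covered its start, and the nearest H3K4me3 peak to the DSG1 start was 30.5 kb away. No more than likeness was measured, and the part of these bases in the marks was not tested.

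The 4 starts with H3K4me3 were richer in CpG than those of DSC1 and DSG1, which had none. Those with a peak had ratios of 0.414 to 0.831 and the others had 0.118 and 0.192. With 6 genes no test was made. DSG3 was the marked gene with least CpG: 6 dinucleotides in 300 bases, with a G and C content of 44.0%, below that of DSG1 (45.7%) and DSC1 (50.0%). DSC2 and DSC3 stood at 60.7% and 63.3% and DSG2 at 76.7%. On either strand of the 300 bases, GGGCGG, the GC box, matched once in DSC2 and 2 times in DSG2 and in none of the others (45.0% of all promoters hold it). CACCTG, an E-box of the SNAI and ZEB repressors, matched in DSC2, DSG1 and DSG2 (20.6% of promoters). CCAAT matched in DSC3 (34.6%), and TATAAA (11.5%), the AP-1 motif TGANTCA (7.71%) and the GRHL motif AACNGGTT (1.73%) matched in none of the 6.

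**Figure D4:**
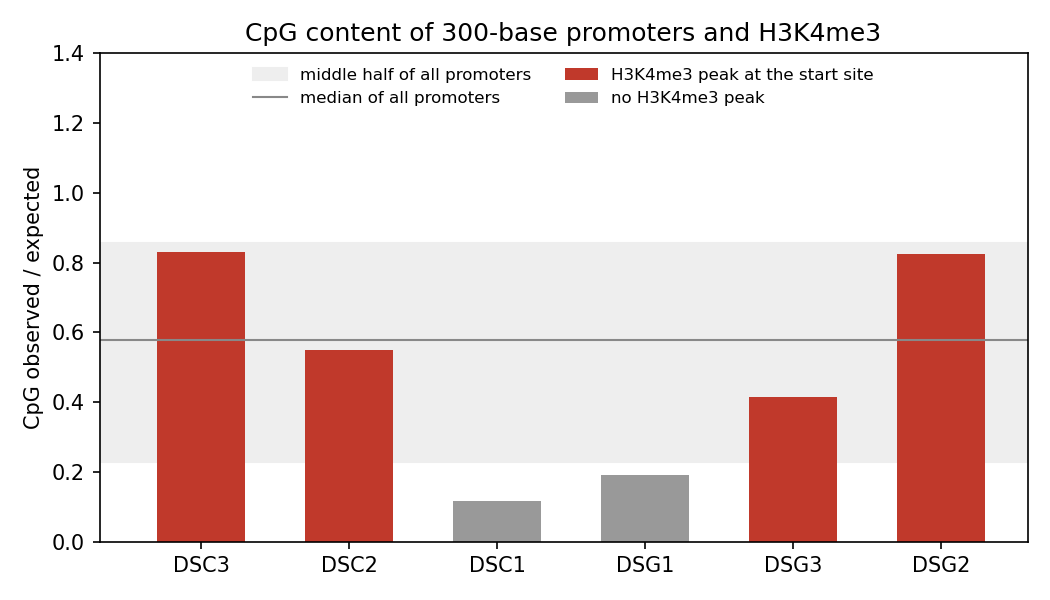
Ratio of observed to predicted CpG in the 300-base RefSeq promoter of 6 genes, coloured by whether an H3K4me3 peak lies within 1 kb of the start. The grey band is the middle 50% of 35116 promoters. DSC1 (0.118) and DSG1 (0.192), the starts without a peak, lie below the band.

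Away from the starts, most H3K27ac peaks lay in the first part of DSG3 or in the gaps DSG3-DSG2, DSC1-DSG1 and DSG4-DSG3. The gap between DSG3 and DSG2 was the most acetylated segment of the region. H3K27ac covered 40.2% and H3K4me1 19.1% of its 19.4 kb, against 3.72% and 6.04% of chromosomes 1 to 22 and X. The H3K27ac share includes the 704 bases of the DSG2 start peak that lie in this gap. The widest H3K27ac peak of the cluster lay there, 3583 bases from 29067647 to 29071229 with a score of 841, centred 8.59 kb upstream of DSG2. Inside it was the widest H3K4me1 peak of the cluster, 2368 bases from 29068093 to 29070460, with a score of 425 (above 90.9% of its list). No H3K4me3 peak lay between the end of DSG3 and the one at the DSG2 start.

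Joining H3K27ac peaks over gaps of up to 12500 bases made 10 clusters in the region. The largest ran from 29062183 to 29093770, a span of 31.6 kb through that gap and into DSG2. Its 7 peaks covered 11.7 kb, of which the peak at the DSG2 start made up 2548 bases. This cluster ranked 1786th of 28076 clusters by covered bases. Its last peak, from 29091741 to 29093770, lay 14.7 kb inside DSG2, scored 281 and touched H3K4me1.

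DSG3 had the largest share of its body under H3K27ac and H3K4me3, and DSG2 the largest under H3K4me1 (7.69%, against 6.82% in DSG3) and H3K36me3. The 4 H3K27ac peaks of DSG3 covered 15.4% of 30.9 kb. Among them were peaks centred 4.29 kb (29031436 to 29032599, score 288) and 6.99 kb (29034039 to 29035397, score 503) inside the gene. H3K4me1 touched both of these inner peaks, and at the farther one it scored 344. A second, weak H3K4me3 peak (score 88.7) lay directly behind the one at the start. H3K27ac covered 7.63% of DSG2, 5.42% of DSC3, 4.95% of DSC2, 2.41% of DSG1 and none of DSC1 and DSG4. Basal genes together had H3K27ac over 9.10% of their bodies, general genes 6.51% and suprabasal genes 1.30%, and the basal value rests mostly on DSG3. These shares include the peaks at the starts. Without the first 3 kb of each gene, H3K27ac covered 9.03% of DSG3, 4.25% of DSG2, 1.41% of DSC3 and 0% of DSC2, against 2.61% of DSG1, so DSG1 then lay above DSC3 and DSC2. The H3K4me3 share of DSG3 fell from 9.53% to 0.0895% without these bases, and those of DSC3, DSC2 and DSG2 fell to 0%. DSG1, with its weak peaks near the 3′ end, then had the largest H3K4me3 share (4.52%).

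**Figure D5:**
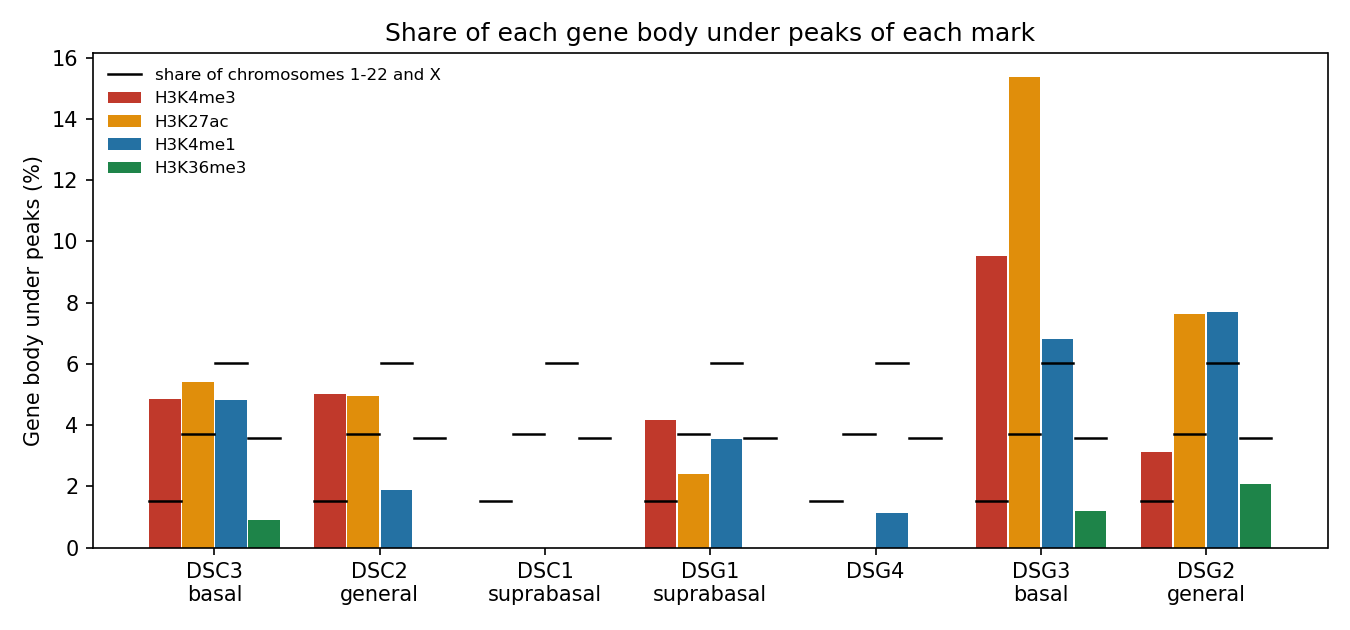
Share of each gene body (percent of bases) under peaks of 4 marks, with a black line at each bar for that mark's share of chromosomes 1 to 22 and X. DSG3 has the highest H3K27ac bar (15.4%), DSC1 has no bar, and the H3K36me3 bars of DSC3, DSG3 and DSG2 stay below their line at 3.60%.

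The 155 kb gap between DSC1 and DSG1 held 6 H3K27ac and 6 H3K4me1 peaks and no H3K4me3. H3K27ac covered 4.23% of this gap, close to its 3.72% of chromosomes 1 to 22 and X. Of the 6 H3K27ac peaks, 4 formed a cluster of 26.0 kb from 28810818 to 28836835, more than 61 kb from the start of either suprabasal gene. Its widest peak, 2246 bases from 28820575 to 28822820, scored 531, above 68.1% of the list, and touched no H3K4me1. Only 1 of the 6 acetylated peaks of the gap, from 28810818 to 28811706 (score 249), touched H3K4me1. In the gap between DSG4 and DSG3, 3 further H3K27ac peaks with scores of 57.7 to 82.8 touched no other mark. H3K27ac covered 8.32% of that gap, including the upstream part of the peak at the DSG3 start.

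H3K27ac peaks of the cluster touched H3K4me1 less often than those of the list. Of its 25 H3K27ac peaks, 8 touched H3K4me1, or 32.0% (95% Wilson interval 17.2 to 51.6), against 79.5% of the whole list and 72.2% on the rest of the chromosome. Among the 19 that touched no H3K4me3, 7 (36.8%) touched H3K4me1, against 82.0% of such peaks in the list and 76.5% on the rest of the chromosome. Cluster peaks were narrower than the list (median 889 against 1310 bases) and scored lower (122 against 190), and in the list, peaks under 1000 bases (73.0%) or with a score under 100 (71.5%) touched H3K4me1 less often than the others. Among peaks of 1000 bases or wider the shares were 4 of 11 (36.4%) and 83.7%, and among those with a score of 100 or more they were 5 of 13 (38.5%) and 83.6%. On the rest of the chromosome, 75.7% of the wider peaks and 75.2% of those with the higher score touched H3K4me1. Of the 9 that touched no H3K4me3 and scored 100 or more, 5 (55.6%, interval 26.7 to 81.1) touched H3K4me1. The share of such peaks was 89.2% in the list and 83.4% on the rest of the chromosome. These breakdowns were chosen after the data were seen. All but 2 of the 8 lay from DSG3 to DSG2, the others being the one in the gap between DSC1 and DSG1 and the one at the end of DSG1. Of the 17 without H3K4me1, 3 had an H3K4me1 peak within 1 kb and 13 within 5 kb. Intervals cover counting error only and treat peaks as independent.

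In the other direction, and for H3K27ac peaks with H3K4me3, the cluster was close to the list. H3K27ac touched 8 of 27 H3K4me1 peaks (29.6%, against 32.2% of the list), and H3K4me3 touched 6 of 25 H3K27ac peaks (24.0%, against 27.7%). The shares of the 7 H3K4me3 peaks lay farther from the list, with wide intervals. H3K27ac touched 6 of 7 H3K4me3 peaks (85.7%, against 61.7%), a share whose interval of 48.7 to 97.4 spans the list's value. H3K4me1 touched 1 of 7 H3K4me3 peaks (14.3%, interval 2.57 to 51.3), against 49.6% of the list, which the interval also spans.

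H3K36me3 was nearly missing from all 7 gene bodies. Its 5 peaks covered 1.89 kb, 0.326% of the region, against 3.60% of chromosomes 1 to 22 and X, and none scored above 89.6. Over 5219 windows of the region's length tiled along these chromosomes, the median was 0.711% with quartiles of 0.0390% and 4.54%, so the region lay below the median but within the quartiles. Of these peaks 3 lay in the later part of DSG2, from 29103023 to 29119828, 1 in DSG3 from 29037585 to 29037949 and 1 in DSC3 from 28598981 to 28599453. They covered 2.07% of DSG2, 1.18% of DSG3 and 0.897% of DSC3, and none of DSC2, DSC1, DSG1 or DSG4. Within 20 kb of the H3K4me3 peak at the start, DSC3, DSC2 and DSG2 had 0 bases of H3K36me3 and DSG3 had 365. The median over all acetylated H3K4me3 peaks was 3048 bases, and 22.9% of them had none. Peaks of this broad mark depend on depth and on the caller, so a low level below the threshold cannot be told apart from its absence.

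H3K27me3 had no peak anywhere in the region, which includes the unmarked starts of DSC1, DSG1 and DSG4. The nearest H3K27me3 peaks lay 953 kb below and 672 kb above it. Of the 5219 windows, 24.3% had no H3K27me3 peak, so the count of 0 is common. Stretches where no peak could be called were not left out of these windows, and 6.04% of the windows had no H3K4me1 peak.

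The region as a whole had more H3K27ac and H3K4me3 than the average of the chromosomes. H3K27ac covered 5.78% of it, 1.55 times the share of chromosomes 1 to 22 and X, and H3K4me3 2.04%, 1.34 times that share. H3K4me1 covered 3.45%, 0.571 times its share of chromosomes 1 to 22 and X and 0.900 times its share of the rest of chromosome 18. The windows had medians of 2.07% for H3K27ac (quartiles 0.332% and 5.42%), 1.01% for H3K4me3 (quartiles 0.337% and 2.08%) and 3.15% for H3K4me1. H3K27ac therefore lay above the upper quartile of windows, H3K4me3 just below it and H3K4me1 close to the median. The 500 kb below the region held 1 H3K4me3 peak, 2 H3K4me1 peaks and none of H3K27ac, whose next peak was 1813 kb away. The 500 kb above it held 5 H3K4me3 and 7 H3K27ac peaks.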

How the data were processed

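Chromatin of RWPE-1 cells was sequenced after immunoprecipitation of 5 histone marks (2 replicates each). Input and DNase data were not used here. The submitters' processing notes name build hg19, Bowtie2, CASAVA 1.8.2 and the peak caller MACS 1.4. The settings, the control library and the way replicates were combined were unknown, as not given in the sources used here. Every peak has a position and a score deposited by the authors. From the lowest value of 50.0 the score was taken as log10(p) multiplied by -10, and it was used only within its list. Depth is unknown.

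Chromosomes 1 to 22 and X were used, which left out 179 to 555 peaks per list. Chromosome lengths ran to the last peak of any list, and stretches where no peak can be called were not left out. Gene bounds in hg19 were those given with the definition of the gene set, with 1 start per gene. Sharing 1 base counted as touching. All 7 genes were named, with the H3K4me3 peaks and the widest or highest peaks of the other marks. Members, windows and lists were chosen with earlier results of these data known, and the comparisons of acetylated H3K4me3 peaks, of promoter sequences and of H3K27ac subsets were added after the data were seen. No other desmosome gene could be placed on hg19 here. Promoter sequences are from RefSeq (GRCh38.p14) and were matched by symbol. Distances between neighbouring starts differed by at most 141 bases between the hg19 bounds and RefSeq, and coordinates were not converted. DSC2 has 2 RefSeq starts 1161 bases apart, and the outer one was used. Local alignments scored 1 for a match, -1 for a mismatch, -2 to open and -0.5 to extend a gap. There is 1 combined list per mark, so no test over replicates was made. Alternatives were other promoter windows, a score of at least 100, stricter overlaps, a wider region, another reference and other joining distances. Overlap and coverage code, tested on simulated data, gave 0 mismatches. Python 3.11.15, numpy 2.4.6, scipy 1.17.1, Biopython 1.88 and matplotlib 3.10.9 were used.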

Additional observations from a re-analysis of the deposited data

How the results depend on the processing

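Which starts were marked did not depend on the settings tried: H3K4me3 and H3K27ac each touched 4 of 7 promoter windows, and the other 3 marks 0, with 500 or 2500 bases to each side, at a score of 100 or more and with at least 200 shared bases. At a score of 100 or more the region kept 4 H3K4me3, 13 H3K27ac, 11 H3K4me1 and 0 H3K36me3 peaks, which covered 1.61%, 4.33%, 1.79% and 0% of it. With this minimum applied to both lists, the number of H3K27ac peaks touching H3K4me1, and of H3K4me1 peaks touching H3K27ac, was 3 (5 where it was applied to H3K27ac alone), that of H3K4me3 peaks touching H3K4me1 was 0 and that of H3K36me3 peaks touching H3K4me1 was 0. With only H3K27ac peaks of 1000 bases or wider, 4 touched H3K4me1. In the region widened by 100 kb to each side, coverage was 1.51% for H3K4me3, 4.45% for H3K27ac and 3.18% for H3K4me1. Relative to the rest of the chromosome in place of chromosomes 1 to 22 and X, coverage was 2.18 times for H3K4me3, 2.34 for H3K27ac, 0.900 for H3K4me1 and 0.184 for H3K36me3, so the H3K4me1 deficit was mostly gone. H3K27ac formed 16 clusters with gaps of up to 5 kb. Fewer peaks follow from a higher threshold, and other causes were not tested. No paired analysis was possible because the replicates of each mark are combined in 1 list, and leaving out a replicate could not be done for the same reason. Depth is unknown, so weak marks may lie below the calling threshold.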
